A study of Mus musculus with 36 samples.

Results

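Matrix metalloproteinases (MMPs), the related protease Adam8 and the tissue inhibitors of metalloproteinases (TIMPs) were examined in mouse bone marrow-derived macrophages (BMDMs), as 9 genes of the 54532 in the count table: Mmp8, Mmp9, Mmp12, Mmp13, Mmp14, Mmp19, Adam8, Timp1 and Timp2. They were taken by gene symbol, each symbol matched 1 row, and all 9 passed the filter on low counts in every comparison. The study asks how CCM (Core Circadian Modulator), a small molecule that binds the PASB domain of the clock factor BMAL1, acts on macrophages that have or lack BMAL1. The cells came from the marrow of adult female C57BL/6 mice and were grown for 7 days with the growth factor MCSF. KO cells carried LysM-Cre and floxed Bmal1 alleles (LysM-Cre;Bmal1 flox/flox), and the WT cells came from Bmal1 flox/flox littermates without Cre. Cre under the LysM promoter acts in myeloid cells as they mature, so that cells in which the alleles were not recombined can remain in a KO culture. Each genotype was treated for 6 h with vehicle (DMSO), with 100 µM CCM in DMSO, with 100 nM LPS (the bacterial lipopolysaccharide) in DMSO, or with LPS and CCM together. There were 3 WT and 6 KO libraries for each of these 4 treatments, 36 in all, and the counts per library were 13469262 to 28288923 with a median of 19951421. The labels number the replicates without saying that each came from a separate animal, so the p-values may measure only the spread between cultures.

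MMPs are zinc enzymes that cut the extracellular matrix and many secreted or membrane proteins. Most are released as inactive precursors, and some, such as Mmp14, sit in the plasma membrane. The TIMPs block the active site of MMPs, so a tissue's proteolysis depends on enzymes, activators and inhibitors together. Macrophages are a known source of Mmp12, the macrophage elastase, and their MMPs are known for their part in tissue remodelling, cell migration and the release of cytokines from cell surfaces. The RNA levels reported here measure transcripts, not enzyme activity.

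The targeted gene came first. Arntl, the gene symbol for Bmal1, was at 7.27, 8.61 and 9.76 CPM in the WT vehicle libraries, where CPM are counts brought to a common library size with factors from the trimmed mean of M-values (TMM). In KO vehicle libraries it ranged from 2.97 to 7.74 CPM with a median of 7.59. With LPS it was at 10.2, 8.02 and 9.30 CPM in WT and at 2.13 to 9.03 CPM (median 7.19) in KO. The WT and KO ranges overlapped with vehicle and with LPS, and the log2 fold changes of KO against WT were -0.34 ± 0.26 (SE, adjusted p = 1) and -0.45 ± 0.34 (adjusted p = 0.986), or -0.20 and -0.27 without KO replicate 6. Gene counts include exons outside the floxed segment, so these levels check nothing about the deletion.

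Several KO libraries stood apart. The 4 libraries of KO replicate 6 had median correlations of 0.831 to 0.905 with the other libraries of their groups, over log2 CPM of all genes that passed the filter, while the 20 libraries of KO replicates 1 to 5 had 0.953 to 0.992 and the 12 WT libraries 0.988 to 0.995. In the LPS+CCM group, KO replicate 5 had the 0.953 of that range. KO LPS+CCM replicates 2 and 5 also did not deviate from their group in the way that the KO LPS libraries of the same number did (r = 0.0223 and -0.186, against 0.659 to 0.887 for the other 4 replicates). Lyz2, the gene whose promoter drives Cre in these mice, was looked at after its values were seen. It ranged from 10418 to 15054 CPM in the 12 WT libraries. In KO replicate 2 it was at 13211 CPM (vehicle), 14219 (CCM), 11049 (LPS) and 14663 (LPS+CCM), inside that range, whereas the median over the 6 KO libraries was 8367 CPM with vehicle and 6417 with LPS. Tests in KO are given with and without replicate 6, and those for CCM under LPS also without LPS+CCM replicates 2 and 5. Replicate 2 was left out only within the fits that leave out each replicate or library in turn. Over those fits 7 to 8 of the 9 genes were called (adjusted p at most 0.05) for LPS in KO. For CCM in KO and for KO against WT it was 0. What lies behind the Lyz2 level of replicate 2 was not tested.

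The cells were checked against marker genes of the labelled type and of others the marrow could supply. All 8 macrophage markers, among them Csf1r, Adgre1 and Cd68, had counts in each of the 36 libraries, with Lyz2 the most abundant at a mean of 9820 CPM. Of 8 fibroblast or stromal markers, 7 had counts in every library, led by Col1a1 at a mean of 343 CPM, and Lum was at 0 in 5 libraries. Of 12 neutrophil markers, 11 had counts in every library, led by Lcn2 at 394 CPM, and Ly6g was at 0 in 3 libraries with a mean of 0.18 CPM. Among 8 osteoclast markers 6 had counts in every library, led by Acp5 at 276 CPM, and among 6 dendritic cell markers 4 did, led by Itgax at 1015 CPM. B cell, T cell and erythroid markers were led by Cd79b at 2.11, Lck at 2.13 and Hba-a1 at 2.40 CPM, and in each of these 3 lists other markers were at 0 in some libraries. Of 6 mast cell or basophil markers 5 had counts in every library, led by Mcpt8 at 4.82 and Cpa3 at 3.93 CPM, and Mcpt4 was at 0 in all 36. In bulk RNA, fewer cells of a type and less RNA per cell cannot be told apart.

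Levels can be compared between genes once counts are divided by length, here the gene length in the table. In unstimulated WT macrophages Mmp12 was the most abundant of the 9 genes, with a median of 592 CPM per kb, and Adam8 followed at 315. The inhibitors Timp2 (71.8) and Timp1 (67.1) came next and overlapped in range. Mmp8 and Mmp14 each had a median of 25.2 and also overlapped, as did Mmp13 (19.5) and Mmp19 (16.8), and Mmp9 was lowest at 11.3. With LPS the order in WT was Mmp13 at 943 CPM per kb, Mmp12 at 539, Mmp14 at 301, Timp1 at 166, Adam8 at 93.4, Timp2 at 35.0, Mmp9 at 23.9, Mmp8 at 12.8 and Mmp19 at 7.57, and no neighbours in that order overlapped. In the KO LPS libraries the order of medians was the same, but Mmp12 overlapped Mmp14, Mmp14 overlapped Timp1, Timp1 overlapped Adam8 and Timp2 overlapped Mmp9.

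**Figure D1:**
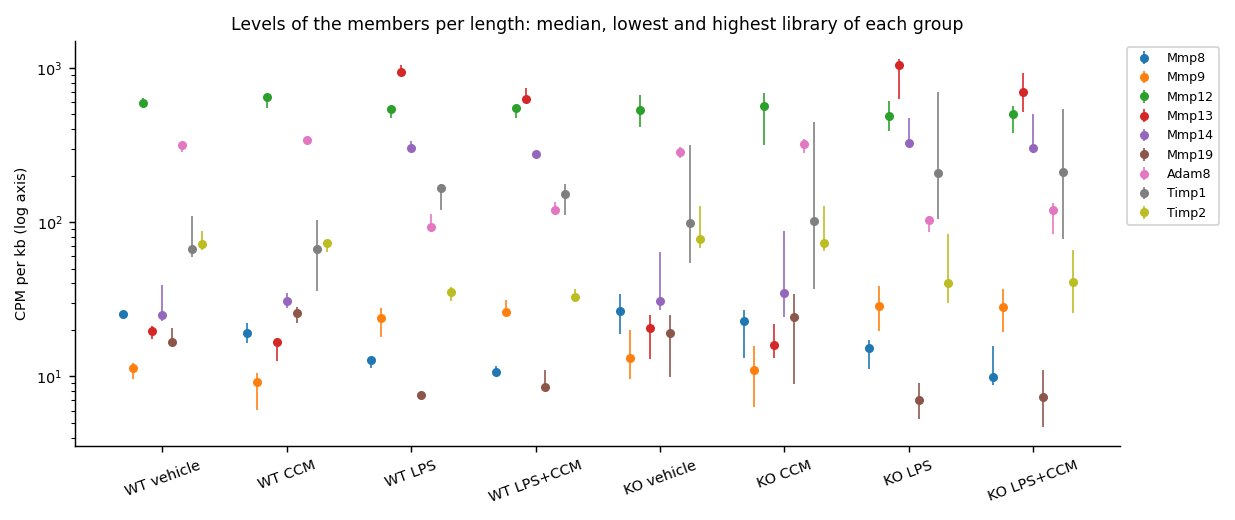
CPM per kb of gene length (log axis) of the 9 genes in the 8 groups, with the median as a point and the lowest and highest library as the ends of the line (3 libraries in each WT group, 6 in each KO group). In the WT groups without LPS Mmp12 is highest, and in the WT groups with LPS Mmp13 is highest.

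Adding the genes by role gives the balance of transcripts for enzymes and inhibitors. The summed level of the 6 MMPs was 665 to 731 CPM per kb in WT vehicle and 1722 to 1938 in WT LPS libraries. Mmp12 made up 83.3 to 86.9% of that sum with vehicle and 27.4 to 29.7% with LPS. The 2 TIMPs together had 132 to 197 CPM per kb with vehicle and 151 to 212 with LPS, so the ratio of summed MMPs to summed TIMPs was 3.60 to 5.49 with vehicle and 9.13 to 11.4 with LPS. With LPS+CCM the ratio was 7.10 to 9.88 in WT. In KO it was 1.21 to 5.68 (median 3.90) with vehicle, 2.04 to 13.3 (median 7.62) with LPS and 2.53 to 14.3 (median 6.18) with LPS+CCM. The lowest of each KO range is replicate 6, without which the ratios were 2.53 to 5.68, 5.96 to 13.3 and 3.53 to 14.3. These are sums of levels and were not tested.

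LPS sets off the inflammatory program of macrophages, and the comparison of LPS with vehicle asks which of the proteases and inhibitors it changes in each genotype. LPS raised the transcripts of the collagenase Mmp13 and the membrane protease Mmp14 the most, lowered Mmp8, Mmp19, Adam8 and Timp2, and did not change Mmp12 past the threshold of the test. In WT, 8 of the 9 genes were called, 4 higher and 4 lower, at an edgeR adjusted p of at most 0.05, where 63.0% of the 14501 genes tested were called, and all 9 had ranges that did not overlap, where 68.9% of genes did not. In KO, 7 of the 9 were called, 3 higher and 4 lower, where 47.1% of 13648 genes were called, and 5 had ranges that did not overlap, where 30.6% of genes did not. Without KO replicate 6 it was 8 of 9, where 69.4% of genes were called, and a fit that blocks on the replicate number called 9774 genes in KO in place of 6433. The absolute log2 fold changes of the 9 genes had a median of 1.12 in WT, against 0.54 over all genes tested, and 1.02 in KO, against 0.50. A share of 8 in 9 is to be read against a background in which most genes tested changed. Scaling by total counts alone in place of TMM moved the median log2 fold change of all genes from -0.05 to -0.47 in WT and from -0.05 to -0.44 in KO. The genes called under that scaling were 2551 higher and 8060 lower in WT (4441 and 4698 with TMM), and 1825 and 5708 in KO (3060 and 3373 with TMM). The 9 genes kept their directions under it. Il1b, Tnf, Il6, Nos2 and Cxcl10, used to check the treatment, rose in both genotypes, Nos2 by a log2 fold change of 12.80 in WT and 9.43 in KO. Nos2 did not pass the low-count filter in KO against WT with vehicle, so these 2 values rest on few counts with vehicle. Under LPS its log2 fold change of KO against WT was -0.18 ± 0.23 (adjusted p = 0.986).

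**Figure D2:**
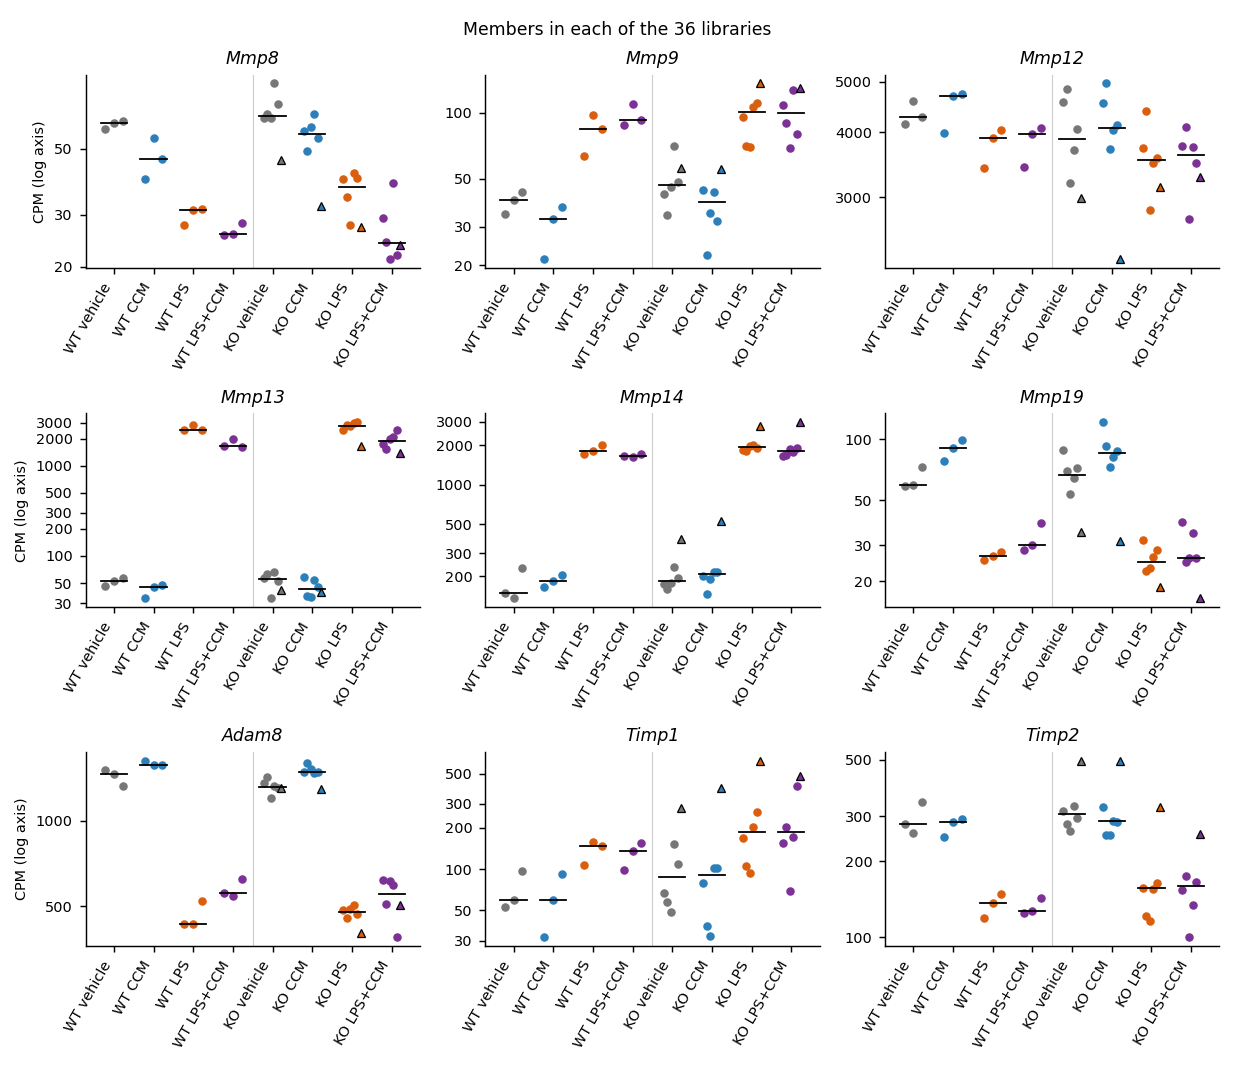
CPM (log axis) of each of the 9 genes in each of the 36 libraries, by genotype and treatment. Each symbol is a library, triangles are KO replicate 6 and bars are group medians. Mmp13 and Mmp14 lie higher in every LPS library than in any vehicle library of their genotype, and KO replicate 6 has the highest Mmp14 of each KO group.

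The collagenases Mmp13 and Mmp8 cut fibrillar collagens, and they moved in opposite directions. Mmp13 (ENSMUSG00000050578, chromosome 9, 7272514 to 7283331 on mm10, plus strand) was at 46.9, 52.3 and 56.5 CPM in the WT vehicle libraries and at 2472, 2806 and 2520.3 CPM in the WT LPS libraries. In KO it ranged from 34.5 to 66.4 CPM (median 55.0) with vehicle and from 1674 to 3048 CPM (median 2782) with LPS. Every LPS library was far above every vehicle library in both genotypes, and the lowest KO LPS value was that of replicate 6. Mmp13 rose by a log2 fold change of 5.65 ± 0.10 (SE, n = 3 and 3) in WT (adjusted p = 4.39e-11) and by 5.63 ± 0.22 (n = 6 and 6) in KO (adjusted p = 3.18e-10). Leaving out KO replicate 6 gave 5.67 in KO. Mmp8 (ENSMUSG00000005800, chromosome 9, 7558456 to 7568485, plus strand), known as the neutrophil collagenase, was at 58.2, 61.1 and 61.7 CPM with vehicle and at 27.6, 31.1 and 31.2 CPM with LPS in WT. Its KO libraries lay at 45.9 to 82.8 CPM (median 64.4) with vehicle and at 27.2 to 41.5 CPM (median 37.0) with LPS. The LPS libraries lay below the vehicle libraries without overlap in each genotype. Mmp8 fell, with log2 fold changes of -1.002 ± 0.07 in WT (adjusted p = 8.75e-07) and -0.91 ± 0.15 in KO (adjusted p = 0.000204), or -0.93 without KO replicate 6.

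The 250 bases before the annotated start are shown for Mmp13 and Mmp14, which LPS raised most, and for Adam8, which it lowered most, so that the members that moved together and apart can be read side by side. The sequences are from RefSeq on GRCm38.p6, by way of a promoter table that is not complete. It was matched by symbol, with 8 entries for 7 of the 9 genes, and Mmp9 and Mmp19 are not in it. Capitals mark matches, on either strand, to 5 motifs: AP-1 (TGANTCA), NF-kB (a fixed form of its site), the E-box CACGTG, which BMAL1 is known to bind, the PU.1 core (GAGGAA) and a TATA box (TATAAA). The Mmp13 window lies at chr9:7272264-7272513 (plus strand), that of Mmp14 at chr14:54431348-54431597 (plus strand) and that of Adam8 at chr7:139992563-139992812 (minus strand), each written 5′ to 3′ in the direction of the gene.
Mmp13: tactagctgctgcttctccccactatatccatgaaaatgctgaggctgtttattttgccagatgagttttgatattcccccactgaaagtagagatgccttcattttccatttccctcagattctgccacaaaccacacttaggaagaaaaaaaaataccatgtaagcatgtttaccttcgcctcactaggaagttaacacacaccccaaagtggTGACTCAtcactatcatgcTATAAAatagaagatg
Mmp14: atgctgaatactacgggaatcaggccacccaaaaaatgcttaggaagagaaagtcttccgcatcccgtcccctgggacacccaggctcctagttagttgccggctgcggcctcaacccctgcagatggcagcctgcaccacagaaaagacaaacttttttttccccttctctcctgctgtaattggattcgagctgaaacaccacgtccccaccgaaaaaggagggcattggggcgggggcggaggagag
Adam8: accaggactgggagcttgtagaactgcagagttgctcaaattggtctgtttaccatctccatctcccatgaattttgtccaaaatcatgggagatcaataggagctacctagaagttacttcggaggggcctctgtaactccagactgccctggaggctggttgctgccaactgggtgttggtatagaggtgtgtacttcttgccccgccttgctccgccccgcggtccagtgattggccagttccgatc
In the Mmp13 window the AP-1 match TGACTCA lies 35 to 29 bases before the start and the TATAAA match 16 to 11 bases before it, and they do not overlap. The windows of Mmp14 and Adam8 hold none of the 5 motifs. Of the other windows, Mmp8 and the first of the 2 Mmp12 entries hold the PU.1 core, the second Mmp12 entry holds AP-1, and Timp1 and Timp2 hold none. Over 32851 windows of 250 bases in the table, AP-1 is found in 6.75%, NF-kB in 1.41%, the E-box in 6.02%, the PU.1 core in 23.3% and TATAAA in 12.4%. A match describes letters and is not a measured binding site.

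Mmp14 (ENSMUSG00000000957, chromosome 14, 54431612 to 54445364, plus strand) encodes a membrane-anchored MMP that cuts collagen at the cell surface and activates the precursor of Mmp2, for which Timp2 serves as a bridge. It was at 150.0, 136 and 232 CPM in the WT vehicle libraries and at 1724, 1791 and 1989 CPM in the WT LPS libraries. The KO range was 159.7 to 382 CPM (median 185) with vehicle and 1796 to 2804 CPM (median 1930.1) with LPS. All LPS libraries lay above all vehicle libraries of their genotype, and KO replicate 6 was the highest of its group in both conditions. Mmp14 rose by a log2 fold change of 3.41 ± 0.19 in WT (adjusted p = 1.26e-07) and 3.21 ± 0.24 in KO (adjusted p = 1.44e-07). The KO value was 3.32 when KO replicate 6 was left out.

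Mmp9 (ENSMUSG00000017737, chromosome 2, 164940780 to 164955850, plus strand), a gelatinase that cuts denatured collagen and type IV collagen, was at 34.2, 40.0 and 43.4 CPM in WT with vehicle and at 63.6, 98.0 and 84.5 CPM with LPS. Levels in KO were 33.9 to 70.2 CPM (median 46.9) with vehicle and 69.7 to 137 CPM (median 101) with LPS. The WT groups did not overlap, while in KO the vehicle library of replicate 4, at 70.2 CPM, lay between the LPS libraries of replicate 3 (69.7 CPM) and replicate 2 (70.3 CPM). Mmp9 rose by a log2 fold change of 1.07 ± 0.15 in WT (adjusted p = 0.000122) and 0.99 ± 0.21 in KO (adjusted p = 0.00152), or 0.89 without replicate 6. It was higher in 6 of 6 KO pairs of the same replicate number. Markers of neutrophils, which are known to carry Mmp8 and Mmp9, had summed levels of 792 to 872 CPM in WT vehicle and 1381 to 1430 CPM in WT LPS libraries, and of 713 to 1341 and 1309 to 2631 CPM in KO. Without KO replicate 6 the sum of these markers with LPS was 1309 to 1859 CPM. Of the 11 tested in WT, 4 rose with LPS and 7 fell, and in KO 3 rose and 5 fell, beside the 63.0% and 47.1% of all genes called. Lcn2, S100a8, Csf3r and Camp were the 4 that rose in WT, of which S100a8 was called lower with total counts alone (-0.21, adjusted p = 0.0293) and lost its call in 5 other fits. With all 36 libraries in 1 fit Camp also lost its call in WT (0.77, adjusted p = 0.161). In that fit S100a9 (-0.24, adjusted p = 0.72) and Ngp (-0.32, adjusted p = 0.392), of those that fell, lost theirs. Camp, 1 of the 3 in KO, lost its call there with total counts alone (0.47, adjusted p = 0.169), without the low-count filter (0.85, adjusted p = 0.0514) and without any of replicates 1 to 5 (adjusted p of 0.0594 to 0.114). Without Lcn2, the most abundant, the sum was 747 to 814 CPM with vehicle and 765 to 784 CPM with LPS in WT, and 669.7 to 1255 and 649 to 1397 CPM in KO. Their part in the levels of Mmp8 and Mmp9 was not tested.

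Mmp12 (ENSMUSG00000049723, chromosome 9, 7344381 to 7369499, plus strand), the macrophage elastase, had the smallest response to LPS of the 9 genes. It was at 4140.1, 4602 and 4285 CPM in WT with vehicle and at 3408, 3902 and 4037 CPM with LPS. The KO libraries held 2989 to 4855 CPM (median 3879.9) with vehicle and 2830.1 to 4402 CPM (median 3535) with LPS. The 3 WT LPS libraries lay below the 3 vehicle libraries, and the KO groups overlapped widely. The log2 fold changes were -0.19 ± 0.08 in WT (adjusted p = 0.0537) and -0.16 ± 0.15 in KO (adjusted p = 0.43), and -0.20 without KO replicate 6. This gene lay close to the threshold. It was called lower in WT without the low-count filter (-0.23, adjusted p = 0.0123), and without WT vehicle replicate 1 (-0.22, adjusted p = 0.0379) or WT LPS replicate 3 (-0.24, adjusted p = 0.0429). Blocking on replicate it was called lower in WT (-0.20, adjusted p = 0.0435) and KO (-0.15, adjusted p = 0.0284), and with total counts alone the values were -0.61 and -0.55 (adjusted p = 7.23e-05 and 0.0205). Mmp1b overlaps its interval on the other strand, with 255 counts over the 36 libraries.

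Mmp19 (ENSMUSG00000025355, chromosome 10, 128790910 to 128800824, plus strand), a secreted MMP that cuts basement membrane proteins, was at 58.7, 59.4 and 73.0 CPM in WT with vehicle and at 25.4, 26.7 and 28.0 CPM with LPS. In KO it ranged from 35.0 to 88.4 CPM (median 67.0) with vehicle and from 18.7 to 31.8 CPM (median 24.8) with LPS. No LPS library reached the lowest vehicle library of its genotype, which in KO was replicate 6. Mmp19 fell, with log2 fold changes of -1.25 ± 0.10 in WT (adjusted p = 1.86e-06) and -1.36 ± 0.20 in KO (adjusted p = 7.31e-05), or -1.41 without replicate 6. Its interval overlaps Tmem198b, with 5849 counts in all libraries together, and Gm47093, both on the other strand.

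Adam8 (ENSMUSG00000025473, chromosome 7, 139978932 to 139992562, minus strand) encodes a membrane protease of leukocytes that sheds surface proteins, and it fell most of the 4 genes that LPS lowered in WT. It was at 1506, 1462 and 1322 CPM in WT with vehicle and at 432, 433 and 522 CPM with LPS. In KO it ranged from 1207 to 1429.7 CPM (median 1317) with vehicle and from 403 to 506 CPM (median 477) with LPS. The groups were far apart in both genotypes. Adam8 had log2 fold changes of -1.62 ± 0.09 in WT (adjusted p = 9.66e-08) and -1.51 ± 0.09 in KO (adjusted p = 1.07e-08), or -1.48 without replicate 6. Gm16201, on the other strand, and Mir7062 overlap its interval.

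The inhibitors Timp1 and Timp2 moved in opposite directions with LPS in WT. Timp1 (ENSMUSG00000001131, chromosome X, 20870166 to 20874735, plus strand), an inhibitor that is known to respond to inflammation, was at 53.1, 59.6 and 97.3 CPM in WT with vehicle and at 107, 157 and 147 CPM with LPS. Across KO libraries it was at 48.5 to 282 CPM (median 87.8) with vehicle and at 92.8 to 617 CPM (median 186) with LPS. The WT groups did not overlap, the KO groups did, and KO replicate 6 held the highest value of each KO group. Timp1 rose in WT by a log2 fold change of 0.97 ± 0.22 (adjusted p = 0.00314), a call that was lost with all 36 libraries in 1 fit (0.97, adjusted p = 0.359). In KO the log2 fold change was 1.02 ± 0.54 and was not called (adjusted p = 0.145), although Timp1 was higher in 6 of 6 pairs. Without KO replicate 6 it was called there (0.92 ± 0.34, adjusted p = 0.0253), as it was in the fit with a replicate block (0.98 ± 0.10, adjusted p = 7.55e-07). The gap between the called value in WT and the uncalled value in KO does not show a difference between the genotypes. The interaction was 0.07 ± 0.82 (adjusted p = 1), -0.06 ± 0.51 without KO replicate 6 and 0.00 ± 0.18 with a replicate block. Syn1 overlaps Timp1 on the other strand, with 4607 counts in all.

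The summed level of the stromal markers was set beside Timp1 after both were seen. With vehicle, CCM and LPS alike, the order of the 3 WT libraries was the same by Timp1 and by this sum, as was that of KO replicates 1 to 5, but not with LPS+CCM or with KO replicate 6 included. That sum was 530.1, 753 and 1486 CPM in WT vehicle replicates 1, 2 and 3, where Timp1 was at 53.1, 59.6 and 97.3 CPM. In KO vehicle replicates 1 to 5 it was 809.8, 707, 579.5, 1521 and 1289 CPM, where Timp1 was at 66.4, 57.6, 48.5, 152 and 109 CPM. KO vehicle replicate 6 had the lowest sum of its group, 565 CPM, and the highest Timp1, 282 CPM. With LPS the sum was 607 to 841 CPM in WT, where Timp1 was at 107 to 157 CPM, and 555 to 1848 CPM (median 849) in KO. With CCM it was 365, 634 and 879.9 CPM in WT replicates 1, 2 and 3, where Timp1 was at 31.7, 59.5 and 92.2 CPM, and 338 to 1292 CPM in KO, and with LPS+CCM 702 to 793 CPM in WT and 385 to 1414 CPM in KO. Of the 7 stromal markers tested, 1 rose with LPS in each genotype, Pdgfrb, and 0 fell, beside 63.0% of all genes called in WT and 47.1% in KO. With CCM in unstimulated cells 7 of 7 had a log2 fold change below 0 in WT and 6 of 7 in KO, and edgeR called 0, DESeq2 called 0 and 0 had an unadjusted p under 0.05 in each genotype. KO LPS+CCM replicate 6 had the lowest sum of its group, 385 CPM, and the highest Timp1, 478 CPM. The part of these cells in the levels of Timp1 was not tested.

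Timp2 (ENSMUSG00000017466, chromosome 11, 118301069 to 118355740, minus strand), an inhibitor that many cells make steadily, was at 279.9, 258 and 341 CPM in WT with vehicle and at 119.5, 137 and 148 CPM with LPS. KO values were 263 to 493 CPM (median 305) with vehicle and 116 to 327 CPM (median 156) with LPS. The WT groups were apart, and in KO the LPS library of replicate 6, at 327 CPM, overlapped the vehicle libraries, while the other 5 LPS libraries were at 163 CPM or less. Timp2 fell, with log2 fold changes of -1.12 ± 0.11 in WT (adjusted p = 1.32e-05) and -0.93 ± 0.26 in KO (adjusted p = 0.0103), or -1.07 without replicate 6. Cep295nl overlaps it on the same strand, with 245 counts in all.

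**Figure D3:**
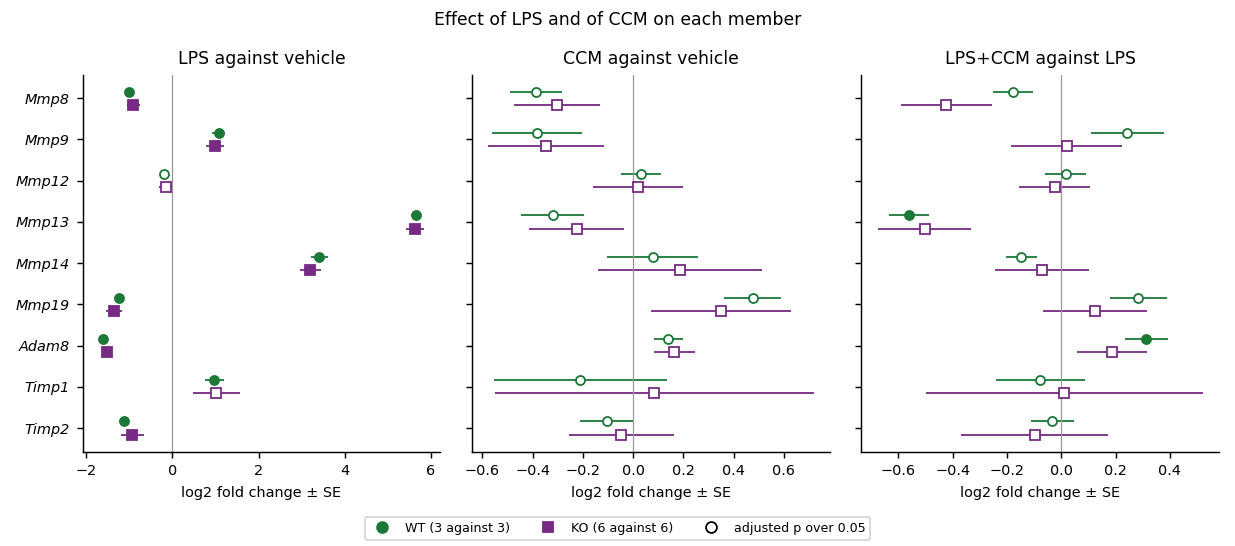
Log2 fold changes of the 9 genes, with standard errors, for LPS against vehicle, CCM against vehicle and LPS+CCM against LPS in WT (circles) and KO (squares). Filled symbols are called at an adjusted p of at most 0.05, and the horizontal axes differ in scale between the panels. With LPS, WT and KO values lie side by side for each gene, from 5.65 and 5.63 for Mmp13 to -1.62 and -1.51 for Adam8.

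The comparison of genotypes asks whether the loss of BMAL1 from myeloid cells alters these genes at rest or under LPS. None of the 9 was called between KO and WT by edgeR with vehicle or with LPS, and all 9 overlapped in range in each case, where 0.925% of genes with vehicle and 1.13% under LPS did not. The background was 0% of 14385 genes with vehicle, where 118 genes had an unadjusted p under 0.05 and DESeq2 called 1, and 0% of 13794 genes under LPS, with 105 at an unadjusted p under 0.05 and 1 called by DESeq2. Without KO replicate 6, 0 of the 9 and 0 genes in all were called in each condition, with 409 and 327 genes at an unadjusted p under 0.05. Timp1 had the largest values, 0.79 ± 0.57 with vehicle and 0.82 ± 0.56 with LPS, which were 0.32 and 0.28 without replicate 6. Mmp14 had 0.37 and 0.16, or 0.13 and 0.05 without that replicate. The response to LPS was also compared between the genotypes. 0 of the 9 genes were called in the interaction, where edgeR called 0% of 15093 genes, 112 had an unadjusted p under 0.05 and DESeq2 called 0. The difference of the LPS effects, KO minus WT, was 0.00 for Mmp13 with an interval (95%) of -0.53 to 0.53, -0.19 for Mmp14 (-0.88 to 0.50), 0.13 for Adam8 (-0.14 to 0.40), -0.09 for Mmp19 (-0.67 to 0.50) and 0.21 for Timp2 (-0.56 to 0.97). Without KO replicate 6 these values were 0.02, -0.09, 0.15, -0.16 and 0.05. The intervals are from the fit without a block, and blocking on the replicate number gave smaller errors: 0.01 ± 0.16 for Mmp13, -0.18 ± 0.14 for Mmp14, 0.13 ± 0.11 for Adam8, -0.07 ± 0.13 for Mmp19 and 0.13 ± 0.13 for Timp2, each with an adjusted p of 1. A p that misses the threshold does not show that the genotypes were alike.

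CCM in unstimulated cells is the comparison of CCM with vehicle. Mmp8, Mmp9 and Mmp13 had lower and Mmp19 higher means with CCM in each genotype, by less than a log2 value of 0.5, and edgeR called none of them. In WT 0 of the 9 genes were called, where 0.0570% of 14024 genes passed (8 genes), and the unadjusted p of 1404 was under 0.05. DESeq2 called 247 genes and 2 of the 9. Ranges did not overlap for 3 genes, Mmp8, Mmp19 and Adam8, and for 16.4% of all genes. In KO 0 of the 9 were called, where edgeR called 0% of 13799 genes, 333 had an unadjusted p under 0.05, DESeq2 called 24 genes, and all 9 genes overlapped in range (0.377% of genes did not). Without KO replicate 6 it was again 0 of the 9, where 1.01% of genes were called. Their absolute log2 fold changes had a median of 0.21 in WT, against 0.11 over all genes, and 0.19 in KO, against 0.09. The vehicle libraries used here are the same as those used for the LPS effects.

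Mmp19 was at 58.7, 59.4 and 73.0 CPM with vehicle and at 78.3, 90.9 and 99.4 CPM with CCM in WT. In KO it ranged from 35.0 to 88.4 CPM (median 67.0) with vehicle and from 31.5 to 121 CPM (median 85.1) with CCM. Each WT CCM library was above each vehicle library, and in KO the CCM library was above the vehicle library of the same number in 5 of 6 pairs. The log2 fold changes were 0.48 ± 0.11 in WT (adjusted p = 0.186, and 0.00128 with DESeq2) and 0.35 ± 0.28 in KO (adjusted p = 1), or 0.38 without replicate 6. Mmp8 was at 39.6, 54.1 and 46.1 CPM with CCM in WT, below the 58.2 to 61.7 CPM with vehicle, and at 32.1 to 65.3 CPM (median 55.7) in KO. In KO its libraries with CCM lay below those of the same number with vehicle in 6 of 6 pairs. The log2 fold changes were -0.39 ± 0.10 in WT (adjusted p = 0.233, and 0.0183 with DESeq2) and -0.30 ± 0.17 in KO (adjusted p = 1), or -0.29 without replicate 6. KO libraries of the same number deviated together here, and a fit with the number as a block called 429 genes in KO, among them 2 of the 9, Mmp8 (-0.31 ± 0.06, adjusted p = 0.0149) and Mmp19 (0.32 ± 0.07, adjusted p = 0.0256). Mmp9 was at 21.3, 32.8 and 37.0 CPM and Mmp13 at 33.8, 44.8 and 47.1 CPM with CCM in WT, where both overlapped vehicle, with log2 fold changes of -0.38 ± 0.18 and -0.32 ± 0.13. The other 5 genes had log2 fold changes of -0.21 to 0.14 in WT and -0.05 to 0.19 in KO, or -0.30 to 0.19 in KO without replicate 6.

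The neutrophil markers were looked at beside Mmp8 and Mmp9 after their values were seen. Most had a log2 fold change below 0 with CCM, as did the markers of most other cell types. The summed level of the neutrophil markers was 568 to 854 CPM with CCM in WT, against 792 to 872 CPM with vehicle. In KO it was 593 to 1350.1 CPM, or 593 to 1151 CPM without replicate 6, against 713 to 1341 CPM. Without Lcn2 the median of that sum was 588 CPM with CCM and 756 CPM with vehicle in WT, and 797 and 1043 CPM in KO, with ranges that overlapped in each genotype. Of the 11 markers tested, 10 had a log2 fold change below 0 in each genotype, with medians of -0.35 in WT and -0.23 in KO. Over all the cell type lists it was 38 of 48 markers in WT and 36 of 47 in KO, where 52.5% and 46.4% of all genes had a log2 fold change below 0. Of all these markers edgeR called 0 in each genotype, and DESeq2 called 2 in WT and 0 in KO. Blocking on the replicate number called 3 in KO. The mast cell or basophil sum was 13.5 to 16.2 CPM with vehicle and 9.04 to 9.38 CPM with CCM in WT, and 10.8 to 22.0 and 7.71 to 15.3 CPM in KO. Of the neutrophil markers in WT, edgeR called 0, 4 had an unadjusted p under 0.05 and DESeq2 called 1. Of the mast cell or basophil markers in WT, edgeR called 0, 3 had an unadjusted p under 0.05 and DESeq2 called 0. In KO each tool called 0 of the neutrophil markers, 0 had an unadjusted p under 0.05, and blocking on the replicate number called 2. Each tool also called 0 of the mast cell or basophil markers in KO, where 1 had an unadjusted p under 0.05 and the block called 0. The part of any of these cells in the lower means of Mmp8 and Mmp9 was not tested.

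CCM under LPS is the comparison of LPS+CCM with LPS, and it asks how the compound alters the stimulated state. In WT, CCM lowered Mmp13, the gene that LPS had raised most, and raised Adam8, the gene that LPS had lowered most. These were the 2 genes called of the 9 in WT, where 11.9% of 13579 genes were called (564 higher and 1057 lower), and 4 of the 9 had ranges that did not overlap, Mmp13, Mmp14, Mmp19 and Adam8, as did 30.5% of all genes. With total counts alone the genes called were 1539 higher and 733 lower. The median absolute log2 fold change was 0.18 for the 9 genes and 0.14 for all genes. In KO edgeR called 0 of the 9, where 0.112% of 13386 genes were called (15 genes), 1070 had an unadjusted p under 0.05 and DESeq2 called 180 genes and 0 of the 9, and all 9 overlapped in range (1.31% of genes did not). The median absolute log2 fold change in KO was 0.10 for the 9 genes and 0.19 for all. Without KO replicate 6, 0 of the 9 were called, where 1.27% of genes were called, and without KO LPS+CCM replicates 2 and 5 0 of the 9 and 0 genes in all, with 654 at an unadjusted p under 0.05. The LPS libraries stand on the other side of the LPS effects, so the 2 sets of values share them and are set side by side only.

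Mmp13 in WT was at 2472, 2806 and 2520.3 CPM with LPS and at 1672, 1976 and 1637 CPM with LPS+CCM. In KO it ranged from 1674 to 3048 CPM (median 2782) with LPS and from 1394 to 2487 CPM (median 1879.7) with LPS+CCM. The WT groups were apart, and in KO the groups overlapped. Mmp13 fell in WT, with a log2 fold change of -0.56 ± 0.07 (adjusted p = 0.000887), which was called in each of the 6 fits that left out a library (-0.65 to -0.50). In KO the log2 fold change was -0.50 ± 0.17 (adjusted p = 0.385), -0.52 without replicate 6 (adjusted p = 0.0744) and -0.55 without LPS+CCM replicates 2 and 5 (adjusted p = 0.767). The call in WT and its absence in KO do not show a difference, and the genotype by CCM interaction was 0.07 ± 0.26, with an interval from -0.44 to 0.58 (adjusted p = 1), or 0.06 without KO replicate 6 and 0.03 without LPS+CCM replicates 2 and 5. With all 36 libraries in 1 fit the call in WT was lost (-0.56, adjusted p = 0.72). The level with LPS+CCM in WT remained far above the 46.9 to 56.5 CPM of the vehicle libraries.

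Adam8 in WT was at 432, 433 and 522 CPM with LPS and at 554, 543 and 624 CPM with LPS+CCM. Among KO libraries it was at 403 to 506 CPM (median 477) with LPS and at 388 to 617 CPM (median 552) with LPS+CCM, the lowest being LPS+CCM replicate 5. The WT groups were apart by 522 against 543 CPM. Adam8 rose in WT by a log2 fold change of 0.31 ± 0.08 (adjusted p = 0.0292). This call was lost without WT LPS replicate 1 (0.27, adjusted p = 0.0711), WT LPS replicate 2 (0.26, adjusted p = 0.123), WT LPS+CCM replicate 2 (0.35, adjusted p = 0.0597) or WT LPS+CCM replicate 3 (0.25, adjusted p = 0.0998), and with all 36 libraries in 1 fit (0.31, adjusted p = 0.727). In KO the log2 fold change was 0.19 ± 0.13 (adjusted p = 0.802), 0.18 without replicate 6 and 0.31 without LPS+CCM replicates 2 and 5, and the genotype by CCM interaction was -0.11 ± 0.19 (adjusted p = 1), or -0.12 and 0.01 with the same libraries left out.

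Among the genes not called in WT, Mmp19 was at 25.4, 26.7 and 28.0 CPM with LPS and at 28.6, 30.3 and 38.6 CPM with LPS+CCM, a log2 fold change of 0.28 ± 0.10 (adjusted p = 0.113). Mmp14 was at 1724, 1791 and 1989 CPM with LPS and at 1640.0, 1615 and 1714 CPM with LPS+CCM, a log2 fold change of -0.15 ± 0.06 (adjusted p = 0.126). Both were apart in range in WT and overlapped in KO. Mmp9 overlapped in WT, at 63.6 to 98.0 CPM with LPS and 88.4 to 110.1 CPM with LPS+CCM, and was higher with CCM in 3 of 3 pairs (0.24 ± 0.13, adjusted p = 0.299). Blocking on the replicate number gave 3220 genes called in WT in place of 1621, and 5 of the 9, the further ones being Mmp9 (0.25, adjusted p = 0.00292), Mmp14 (-0.14, adjusted p = 0.00153) and Mmp19 (0.28, adjusted p = 0.00714). Mmp8 had -0.18 ± 0.07 in WT (adjusted p = 0.154) and -0.42 ± 0.17 in KO (adjusted p = 0.506), or -0.44 in KO without replicate 6 and -0.33 without LPS+CCM replicates 2 and 5. Mmp12, Timp1 and Timp2 had log2 fold changes of -0.08 to 0.02 in WT and -0.10 to 0.01 in KO, which became -0.02 to 0.27 without replicate 6 and -0.16 to -0.07 without LPS+CCM replicates 2 and 5. Mmp9, Mmp14 and Mmp19 had 0.02, -0.07 and 0.12 in KO, 0.06, -0.10 and 0.18 without replicate 6, and 0.13, 0.00 and 0.19 without LPS+CCM replicates 2 and 5. Arntl was at 10.2, 8.02 and 9.30 CPM with LPS and at 12.9, 11.5 and 12.5 CPM with LPS+CCM in WT, apart in range. It rose there by 0.43 ± 0.12 (adjusted p = 0.0441), a call lost with DESeq2 (adjusted p = 0.0517) and with all 36 libraries in 1 fit (0.42, adjusted p = 1). It was also lost without WT LPS replicate 2 (0.34, adjusted p = 0.165) or 3 (0.44, adjusted p = 0.0991), or LPS+CCM replicate 1 (0.39, adjusted p = 0.11), 2 (0.47, adjusted p = 0.0832) or 3 (0.41, adjusted p = 0.11).

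**Figure D4:**
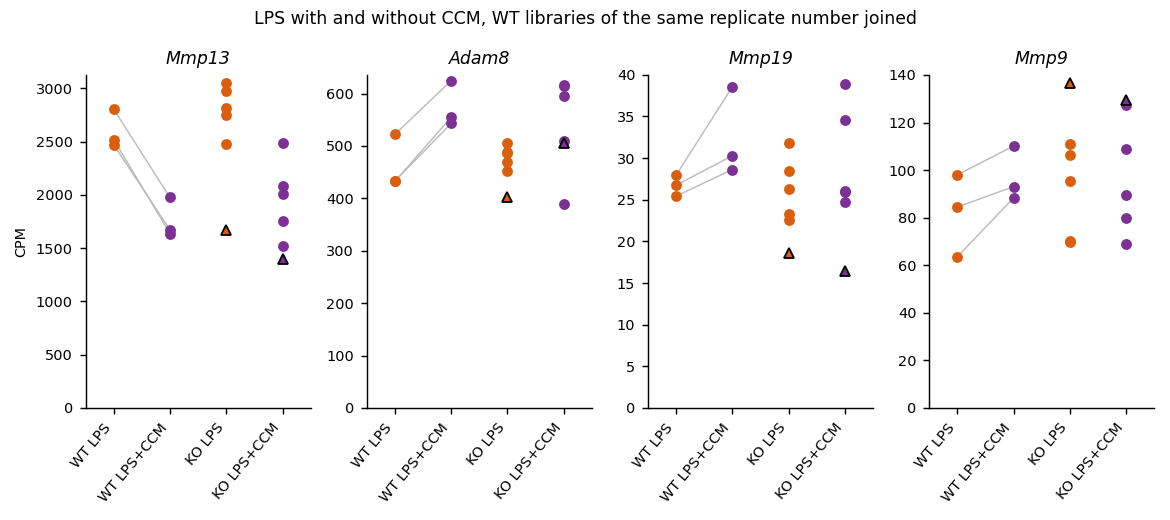
CPM of Mmp13, Adam8, Mmp19 and Mmp9 with LPS and with LPS+CCM in WT and KO. Each symbol is a library, lines join WT libraries of the same replicate number and triangles are KO replicate 6. In WT the LPS+CCM libraries lie below the LPS libraries for Mmp13 and above them for Adam8, without overlap. The KO groups overlap for all 4 genes.

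Markers of cell types were read for the same comparison, and those called are named after their values were seen. In WT 7 of the 48 tested were called, beside 11.9% of all genes. Csf1r rose (0.27 ± 0.04) and Fcgr1 (-0.31 ± 0.08) and Mertk (-0.21 ± 0.05) fell among 8 macrophage markers. S100a9 (-0.28 ± 0.07) fell among 10 neutrophil markers, Pdgfrb (-0.21 ± 0.05) among 7 stromal, Dcstamp (-0.42 ± 0.09) among 7 osteoclast and Ms4a2 (-1.49 ± 0.38) among 5 mast cell or basophil markers. With total counts alone Fcgr1, Mertk, S100a9 and Pdgfrb lost their calls (adjusted p of 0.0841 to 0.113). DESeq2 called 8 markers, a fit that blocks on the replicate number 16 and all 36 libraries in 1 fit 0. Every one of the 7 but Csf1r also lost its call in at least 1 fit that left out a library. The neutrophil sum was 1196 to 1360 CPM with LPS+CCM in WT, below the 1381 to 1430 CPM with LPS. In KO it was 1221 to 2337 CPM, against 1309 to 2631 CPM, or 1221 to 1975 and 1309 to 1859 CPM without replicate 6. Of the 10 neutrophil markers tested, 6 had a log2 fold change below 0 in each genotype, beside 47.2% of all genes in WT and 49.4% in KO. In KO edgeR called 0 of 46 markers, 5 had an unadjusted p under 0.05 and DESeq2 called 1. The part of these cells in the values of the 9 genes was not tested.

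Whether CCM acts differently with and without LPS was tested as an interaction. In WT edgeR called 0 of the 9 genes, where 2.09% of 14747 genes passed, the unadjusted p of 2060 was under 0.05, and DESeq2 called 707 genes and 0 of the 9. In KO it was 0 of the 9, where 0.00685% of 14588 genes were called (1 gene), 536 had an unadjusted p under 0.05 and DESeq2 called 12 genes and 0 of the 9. It was also 0 of the 9 in KO without replicate 6, where 0.0685% of genes were called, and without LPS+CCM replicates 2 and 5, where 0 genes were called. Mmp9 had the largest WT value, 0.61 ± 0.25 (adjusted p = 0.281), with a log2 fold change for CCM of -0.38 in unstimulated cells and 0.24 under LPS. It was called without the low-count filter (0.63, adjusted p = 2.91e-06). The values for Mmp13 and Adam8 in WT were -0.25 ± 0.16 and 0.16 ± 0.11. In the genotype by CCM interaction under LPS, 0 of the 9 were called, where edgeR called 0% of 14546 genes, 72 had an unadjusted p under 0.05 and DESeq2 called 0.

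Other genes of matrix proteolysis were read from lists of the same pathway. The counts called with LPS stand beside 63.0% of all genes called in WT and 47.1% in KO, and no list was tested as a whole. With LPS in WT, 3 of the 10 other MMP genes tested (of 17 in the list) rose, Mmp3, Mmp25 and Mmp10, and 2 fell. Mmp3, a stromelysin, was at 0 to 0.132 CPM with vehicle and 6.43 to 7.02 CPM with LPS, with a log2 fold change of 6.96 ± 0.44 that rests on few or no counts with vehicle. Mmp25, a membrane-anchored MMP of leukocytes, rose by 3.86 ± 0.17. In KO 4 of 9 rose and 1 fell. Of the ADAM genes, 4 of 8 rose and 2 fell in WT (1 and 2 of 8 in KO), with Adam17, the sheddase that releases TNF, at 1.45 ± 0.06 and Adam10 at -0.88 ± 0.06. Among the ADAMTS proteases 3 of 10 rose and 1 fell in WT (4 and 1 of 10 in KO), with the aggrecanase Adamts4 at 3.56 ± 0.35 and Adamts10 at -1.64 ± 0.08. In the plasminogen system, which can activate MMP precursors, the receptor Plaur rose (1.68 ± 0.06) while the activator Plau (-2.65 ± 0.08) and the convertase Furin (-0.56 ± 0.09) fell, as 1 and 2 of 6 genes in each genotype. Furin lost its call in WT with all 36 libraries in 1 fit (-0.57, adjusted p = 0.121) and in KO without replicate 1 (-0.59, adjusted p = 0.0651), 2 (-0.61, adjusted p = 0.0561) or 3 (-0.55, adjusted p = 0.0725). Of 5 other inhibitors tested, 1 rose in each genotype, Serpinb2, an inhibitor of plasminogen activators (4.07 ± 0.24 in WT and 3.72 ± 0.44 in KO). The clearance receptor Lrp1, which takes up protease and inhibitor complexes, fell in WT (-1.26 ± 0.07) and KO (-1.33 ± 0.20). Of 5 cathepsins and elastase genes 3 fell in WT and 2 in KO, and of 14 matrix genes tested 2 rose in WT and 3 in KO, with 0 lower, led by the proteoglycan Vcan (3.77 ± 0.30 in WT and 3.78 ± 0.37 in KO). Counts in such short lists moved with the processing and with the libraries used. Over the alternatives the matrix genes called were 1 to 13 in WT and 2 to 5 in KO, and the cathepsins and elastase genes 2 to 5 in WT and 1 to 5 in KO. The ADAM genes called were 2 to 7 in each genotype, the ADAMTS genes 2 to 6 in WT and 4 to 7 in KO, and the other inhibitors 1 to 4 in WT and 1 to 3 in KO. Tnc, counted among the matrix genes that rose, lost its call in WT with DESeq2 (0.88, adjusted p = 0.0737), with total counts alone (0.43, adjusted p = 0.19), with all 36 libraries in 1 fit (0.85, adjusted p = 0.184) and without WT vehicle replicate 2 (0.79, adjusted p = 0.0677) or WT LPS replicate 2 (0.70, adjusted p = 0.0867). In KO it was lost with total counts alone (0.50, adjusted p = 0.27), without the low-count filter (0.87, adjusted p = 0.0539) and without any of replicates 1 to 5 (adjusted p of 0.0526 to 0.0913). Col4a2 lost its call in KO with total counts alone (0.32, adjusted p = 0.317). Ctsb, which with the elastase gene Elane made up the 2 that fell in KO, lost its call there without any of replicates 1 to 5 (adjusted p of 0.0606 to 0.0825).

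With CCM under LPS in WT, the counts in these lists stand beside 11.9% of all genes called, 564 higher and 1057 lower (1539 and 733 with total counts alone). With all 36 libraries in 1 fit, each gene named here for WT lost its call (adjusted p of 0.472 to 1). Mmp25 fell among 9 other MMP genes (-0.84 ± 0.17), a call lost without WT LPS+CCM replicate 2 (-0.80, adjusted p = 0.0552). Serpinb2 fell by 1.64 on the log2 scale and Timp3, a TIMP that stays bound to matrix, by 0.44, as 2 of 5 other inhibitors. In the plasminogen system Plau (-0.64 ± 0.09) and Plaur (-0.41 ± 0.06) fell among 6 genes, and Adamts4 (-0.51 ± 0.08) fell among 10 ADAMTS genes. Lrp1 was the gene called of the 2 clearance receptors and rose (0.25 ± 0.05). Of 14 matrix genes Lamc1 rose (0.38 ± 0.07) and Vcan (-0.56 ± 0.09) and Thbs1 fell, Thbs1 losing its call without WT LPS replicate 2 (-0.27, adjusted p = 0.0849) or 3 (-0.27, adjusted p = 0.061) or LPS+CCM replicate 2 (-0.29, adjusted p = 0.0809). Of 8 ADAM genes 1 fell, Adam19, and of 5 cathepsins and elastase genes 0 were called. Adam19 (-0.33 ± 0.08) lost its call without WT LPS replicate 2 (-0.30, adjusted p = 0.107) or 3 (-0.32, adjusted p = 0.0713) or LPS+CCM replicate 1 (-0.26, adjusted p = 0.0733) or 2 (-0.34, adjusted p = 0.0802). All 5 treatment check genes fell in WT, Cxcl10 by -1.18 ± 0.06. In KO Cxcl10 was the gene called in these lists (-1.09 ± 0.13, adjusted p = 0.00536), and its call was lost without KO replicate 1 (-1.10, adjusted p = 0.0851) or 2 (-1.05, adjusted p = 0.114), without LPS+CCM replicates 2 and 5 (-1.03, adjusted p = 0.0876), and with all 36 libraries in 1 fit (-1.07, adjusted p = 0.109). The other list genes named here for WT were not called in KO. Their KO values were -1.63 for Serpinb2, -0.86 for Mmp25, -0.76 for Timp3, -0.62 for Plau and -0.30 for Plaur. Adamts4 had -0.36, Adam19 -0.59, Vcan -0.78, Thbs1 -0.55, Lrp1 -0.07 and Lamc1 0.01. Calls in WT and their absence in KO do not show a difference between the genotypes. In unstimulated cells and between the genotypes 0 genes of these lists were called by edgeR, and blocking on the replicate number 5 were called for CCM in unstimulated KO. Blocking also raised the count of list genes called for CCM under LPS in WT from 16 to 25, and for LPS in KO from 28 to 46.

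Correlations among the 9 genes were taken in pairs. Over the 36 libraries, log2 CPM of Mmp13 and Mmp14 had a Pearson r of 0.97 and those of Mmp13 and Adam8 of -0.98, values that mostly reflect the separation of libraries with and without LPS. After group means were taken out the same pairs had r of -0.21 and 0.06. Timp1 with Timp2 (0.89) and Timp1 with Mmp14 (0.81) had the highest values after group means were taken out, and KO replicate 6, high in all 3 genes, enters both. Mmp12 with Mmp19 had 0.75.

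The genes whose pattern over the 36 libraries was most like that of each member were searched among 11177 genes, and the r describes libraries that share treatment. For Mmp13 they were Ifi211, an interferon-induced gene, and Ets2, a transcription factor (each r = 0.996). For Mmp14 they were the scavenger receptor Scarf1 and the AP-1 family member Batf (each 0.992), for Adam8 Sfxn3 (0.992) and Cerk (0.991), and for Mmp19 Ptgfrn and Setd7 (each 0.961). Mmp9 was most like Hp, which encodes haptoglobin (0.935), and Ly6c2 (0.933), a marker of monocytes. For Mmp8 they were Sh3pxd2a (0.934), a scaffold of the podosomes at which macrophages degrade matrix, and Rhoj (0.930). Timp1 was most like P4ha2, a collagen prolyl hydroxylase (0.964), and Chpf (0.954), Timp2 like Tspan4 (0.980) and Lmna (0.979), and Mmp12 like Tmem165 (0.852) and Pdik1l (0.847), the lowest r of the 9.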

How the data were processed

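The table of raw counts per gene that the authors deposited was used, with 54532 genes and 36 libraries, and no column was left out. The authors cleaned paired-end reads of poly(A) RNA with fastp, aligned them to mm10 with HISAT2 2.0.5 and counted them with featureCounts 1.5.0-p3. The strand setting is not stated. The deposited table also gives a gene length in bases (unit: other), used for levels per kb. The 9 genes and all lists of genes were chosen with earlier results of these data known.

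Counts were tested with edgeR 4.0.16 (R 4.3.3, limma 3.58.1) over all genes of each comparison, by quasi-likelihood F tests after its low-count filter and TMM scaling, with calls where p, adjusted by Benjamini-Hochberg, was at most 0.05. Each comparison was fitted on its own libraries. Levels in CPM use factors over all 36 libraries, and correlations use log2 CPM with a prior count of 2. Alternatives were DESeq2 1.42.0, RLE scaling, total counts alone, no low-count filter, all 36 libraries in 1 fit, the replicate number as a block, and each library or replicate left out. The fits were tested on simulated data with known changes.

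Named genes outside the 9 were Arntl, up to 3 higher and 3 lower genes called in each list with the largest change among those with an average log2 CPM of at least 1, for LPS and for CCM under LPS, and the 2 genes most like each member in pattern. Other genes, such as Mmp10, Lyz2 and the cell type markers, are named after their values were seen. The lists were other MMP genes, ADAM, ADAMTS, other inhibitors, the plasminogen system, cathepsins and elastase, clearance receptors, matrix genes, treatment check genes and cell type markers.

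Whether replicate numbers pair the libraries was checked by correlating the deviations of same-numbered libraries from their group means over 11178 genes. The numbers were taken as pairs, from the data and not from the labels, where every correlation was over 0.1: LPS in WT (0.114 to 0.224), LPS in KO (0.346 to 0.906), CCM in unstimulated KO (0.435 to 0.923) and CCM under LPS in WT (0.211 to 0.451). Median counts per library were 17886462 to 26180271 in the 8 groups. Over the 72 pairs of libraries of the same group, the chi-square per degree of freedom was at least 4.08, where counting noise alone gives 1. Analyses used Python 3.11.15 with numpy 2.4.6, pandas 2.3.3, scipy 1.17.1 and matplotlib 3.10.9.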

Additional observations from a re-analysis of the deposited data

Results flagged for a closer look

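In each group of 6 the more extreme of the highest and lowest values was compared with the rest: its gap to the nearest value was divided by the group's range, and it stood apart where this share was above the critical value. Of 36 cases tested (9 genes in 4 KO groups), 9 stood apart, where 1.8 are expected by chance at 5%, and all 9 are KO replicate 6 as the highest of its group. For Mmp14 the shares were 0.656 (vehicle), 0.817 (CCM), 0.811 (LPS) and 0.83 (LPS+CCM). For Timp1 they were 0.806 with CCM and 0.677 with LPS, and for Timp2 0.716 with vehicle, 0.69 with CCM and 0.774 with LPS. The same libraries had the lowest correlations with their groups, so the values of the 3 genes are not independent of each other, and what sets this replicate apart was not tested.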

How the results depend on the processing

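Over 1386 alternative values for the 9 genes, 0 reversed a call, 7 lost one and 32 gained one. Among genes named from the lists, 733 alternative values held 67 lost calls and 0 reversals. Of the cell type markers named, S100a8 with LPS in WT reversed with total counts alone (-0.21, adjusted p = 0.0293), and it lost its call without the low-count filter (0.17, adjusted p = 0.084), with all 36 libraries in 1 fit (0.20, adjusted p = 0.763) and without WT vehicle replicate 2 (0.15, adjusted p = 0.147) or WT LPS replicate 1 (0.15, adjusted p = 0.161) or 2 (0.21, adjusted p = 0.0965). The count of the 9 genes called moved as follows, and the cause was not tested. For LPS in WT it was 8, but 9 with total counts alone, without the low-count filter or with the replicate block (Mmp12 gained), and 7 with all 36 libraries in 1 fit (Timp1 lost). For LPS in KO it was 7, but 8 with total counts alone (Mmp12) and 9 with the block (Mmp12 and Timp1). For CCM in unstimulated WT it was 0, but 2 with DESeq2 (Mmp8, Mmp19) and 4 without the low-count filter (Mmp8, Mmp9, Mmp13, Mmp19). For CCM under LPS in WT it was 2, but 5 without the filter (Mmp9, Mmp14 and Mmp19 gained), 3 with total counts alone, 0 with all 36 libraries in 1 fit, and 1 to 2 when libraries were left out. For the LPS by CCM interaction in WT it was 0, and 1 without the filter (Mmp9). With the replicate number as a block, where the numbers pair the libraries, it was 2 for CCM in unstimulated KO and 5 for CCM under LPS in WT, and the block changed no other call of the 9 genes beyond those given with the results. Where libraries share only a number, the block gave 4 for CCM in unstimulated WT (the same 4 genes; correlations -0.00 to 0.56, each library best with its own number in 2 of 3 cases), 2 for CCM under LPS in KO (-0.19 to 0.89, 4 of 6), Mmp13 (-0.50, adjusted p = 0.0111) and Mmp8 (-0.44, adjusted p = 0.0395), and 1 for the LPS by CCM interaction in WT, Mmp9 (0.65, adjusted p = 0.0218). Leaving out libraries gave 8 to 9 for LPS in WT and 7 to 8 for LPS in KO. With all 36 libraries in 1 fit, the genes called for CCM under LPS in WT went from 1621 to 17. Without KO LPS+CCM replicates 2 and 5, an alternative chosen after seeing the data, 0 of the 9 were called for CCM under LPS in KO and in the interactions. For CCM under LPS in WT, Mmp19 was called with total counts alone (0.36, adjusted p = 0.0399), and Adam19 and Thbs1 lost their calls (-0.25 and -0.21, adjusted p = 0.0663 and 0.0638). Genes at low counts, such as Mmp3 with vehicle, are limited by depth.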
